A study of Mus musculus with 10 samples.

Results

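Cd160, Crtam, Cst7, Ctsw, Fasl and Fcer1g are 6 genes of cytotoxic lymphocytes and natural killer (NK) cells, and they were followed here in spleen T cells of mice with experimental asthma. They are 6 of the 20617 gene names in the table and were chosen by name. Bulk RNA sequencing was performed on T cells, labelled as spleen CD3+ cells, of 5 PBS-treated (replicates 1 to 5) and 5 OVA-treated (replicates 6 to 10) Nf1OPG mice, with 1 library per replicate. The study used these libraries to look for transcripts that differ between T cells of asthmatic and control mice.

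All mice, controls included, were Nf1OPG, a C57BL/6 model of optic glioma in Neurofibromatosis type 1. These mice carry 1 mutant Nf1 allele in every cell and lose the floxed allele in neuroglial progenitors through Cre driven by the GFAP promoter, so that the T cells of both groups are Nf1 heterozygous. OVA mice received weekly intraperitoneal injections over 2 weeks, each of 0.5 mL with ovalbumin from chicken egg at 16 ug/mL and aluminum hydroxide at 2 mg/mL, and the study's methods add intranasal ovalbumin. Controls received PBS. The age of the mice at collection of these T cells is not given in the sources used here. The protocol names CD4 and CD8a isolation kits, and no source says whether a library holds 1 mouse or several, so p-values measure the spread between these libraries.

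Cytotoxic lymphocytes kill through granules that carry perforin and granzymes, and through death ligands at their surface. Granule proteases are processed by cysteine cathepsins, whose activity is held in check by cystatins. NK cells and CD8 T cells share most of this machinery, whereas some of its signaling adaptors are also used by myeloid cells and mast cells.

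The gene names of the table were out of step with the values, and the values of each gene therefore had to be taken from a row above its name. Values were read 3 rows above the name for Cd160, 5 rows above for Crtam, Cst7 and Ctsw, and 7 rows above for Fasl and Fcer1g. An alignment of names and mean values that used no treatment groups gave the same distances, with probabilities of 0.998 to 1.00. Neighboring genes that T cells should express or should lack were used as a further check. Around Crtam, Cst7 and Ctsw, 31 of 32 expressed anchors lay over 100 normalized counts and 7 of 7 silent anchors lay under 10 at the distance of 5 rows, or 97.4% of anchors, and no other distance from 0 to 14 rows exceeded 61.5%. Around Fasl and Fcer1g 88.6% of anchors were at the expected level at 7 rows, with 71.4% at the next best distance. These were 26 of 27 expressed but 5 of 8 silent anchors. The silent anchors gave the same 5 of 8 at 2, 6 and 13 rows, so they did not single out 7 rows. Around Cd160 the check was weaker, with 19 of 20 expressed but 3 of 10 silent anchors at the expected level at 3 rows, or 73.3% against 63.3% at the next best distance. Other genes named here were placed by the alignment alone with a probability over 0.9, and single placements can still be wrong. The row placed as Lamp1, a lysosomal gene of most cells, held 336 to 821 normalized counts, which is low for such a gene, and the values of marker, partner and alike genes share this limit.

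**Figure D1:**
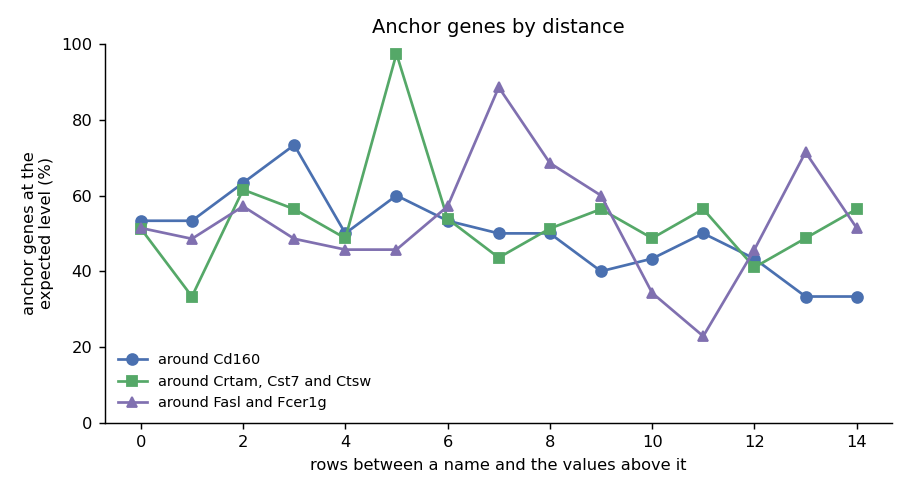
Share of anchor genes at the expected level (vertical axis, %) against the number of rows between a name and the values above it (horizontal axis), for the 3 stretches of the table that hold the 6 genes. The shares peak at 3 rows (73.3%), 5 rows (97.4%) and 7 rows (88.6%).

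Values are normalized counts, which are reads divided by a size factor of each library. Between 6835696 and 23130017 reads were recovered per PBS library, the fewest in PBS 3, and between 14711683 and 29915782 per OVA library. Each of the 6 genes was well covered, with 158 reads for Fasl in PBS 3 as the lowest count and 9866 reads for Ctsw in OVA 7 as the highest. Fold changes are OVA over PBS on the log2(normalized counts + 1) scale, with standard errors (SE) and 95% intervals from limma over 20249 genes. Adjusted p-values are Benjamini-Hochberg values from the same fit, and the exact permutation p is two-sided over the 252 assignments of the libraries. With limma 0 of the 6 genes passed an adjusted p-value of 0.05, against 0.00494% of all tested genes. At an unadjusted p-value under 0.05 the count was also 0 of 6, against 9.77% of all tested genes. On recovered reads edgeR called 0 of 6 (0.00988% of all tested genes). DESeq2 also called 0 of 6 (0.894% of the 18678 genes to which it gave an adjusted p-value). The PBS and OVA libraries overlapped in each of the 6 genes, whereas they did not overlap in 1.78% of all tested genes.

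Ctsw and Cst7 are the protease and the protease inhibitor among the 6 genes. Ctsw encodes cathepsin W, a cysteine protease of CD8 T cells and NK cells, and lies on chromosome 19 at 5465043 to 5468508 on the minus strand (mm10, GENCODE M21). In PBS mice Ctsw was measured at 5928, 4272, 3525, 4787 and 4795 normalized counts in replicates 1 to 5. In OVA mice it was measured at 4403, 6175, 4740, 3574 and 4765 normalized counts in replicates 6 to 10. PBS 1 and OVA 7 were the high libraries and PBS 3 and OVA 9 the low ones, so that each group held both extremes. The means were 4661 ± 877 in PBS and 4732 ± 940 in OVA (SD, n = 5 each). The log2 fold change of Ctsw was 0.02 (SE 0.16, interval -0.33 to 0.37, adjusted p = 0.979 by limma), and the exact permutation p was 0.857. This interval corresponds to 0.796- to 1.29-fold. Ctsw overlaps Fibp on the opposite strand, and the library kit does not mark strand, so that reads from the shared bases cannot be told apart.

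Cst7 encodes cystatin F, an inhibitor of cathepsins such as Ctsc and Ctsl in the granules of killer cells, and lies on chromosome 2 at 150570415 to 150578945 on the plus strand. Its normalized counts were 2788, 1867, 1628, 2021 and 2156 in PBS 1 to 5. In OVA 6 to 10 they were 2074, 2524, 2734, 1750 and 2197. The highest PBS and the highest OVA library were nearly level, and the lowest of each group were also close. Means were 2092 ± 436 in PBS and 2256 ± 385 in OVA (SD, n = 5 each), with a log2 fold change of 0.12 (SE 0.16, interval -0.23 to 0.46, adjusted p = 0.849 by limma) and an exact permutation p of 0.516. Cst7 had the narrowest range of the 6 genes, 1.71-fold from the lowest to the highest library.

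RefSeq promoters, from 250 bases before to 50 after the start, were found for 4 of the 6 genes, namely Cd160, Cst7, Fasl and Fcer1g. Those of Cst7 and Fcer1g are shown because these genes were the least and the most variable over the libraries. Core letters of motifs of factors that act in lymphocytes and myeloid cells were searched on both strands. These were RUNX (ACCACA, in 16.8% of 32851 promoters), T-box (GGTGTG, in 19% of them) and PU.1 (GAGGAA, in 28.3%). Other forms of these motifs were not searched. The Cst7 promoter, chr2:150570165-150570464 (GRCm38.p6, plus strand), held 1 RUNX match on the opposite strand, in capitals below, and no match to the letters of the other motifs.
Cst7: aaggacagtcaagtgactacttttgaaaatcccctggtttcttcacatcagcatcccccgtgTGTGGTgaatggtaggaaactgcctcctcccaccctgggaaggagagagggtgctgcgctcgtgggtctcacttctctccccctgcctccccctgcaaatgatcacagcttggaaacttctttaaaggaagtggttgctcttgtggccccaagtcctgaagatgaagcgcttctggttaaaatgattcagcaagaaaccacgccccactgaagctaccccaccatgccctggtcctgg

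Fasl encodes Fas ligand, the membrane protein that triggers death of cells bearing Fas, and lies on chromosome 1 at 161780689 to 161788496 on the minus strand. The normalized counts of Fasl were 559, 279.7, 438, 393 and 426 in PBS 1 to 5. The OVA libraries 6 to 10 gave 400.3, 312, 305, 388 and 569. PBS 1 and OVA 10 stood above the other libraries and PBS 2 was lowest. The means of 419 ± 100.2 in PBS and 395 ± 106 in OVA (SD, n = 5 each) differed by less than the spread between replicates. Fasl had a log2 fold change of -0.09 (SE 0.21, interval -0.54 to 0.36, adjusted p = 0.916 by limma) and an exact permutation p of 0.746.

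Crtam and Cd160 are surface receptors. Crtam, an adhesion receptor of activated CD8 T cells and NK cells that binds Cadm1, lies on chromosome 9 at 40969691 to 41004629 on the minus strand. PBS 1 to 5 held 969.7, 701, 501, 657 and 751 normalized counts of Crtam. OVA 6 to 10 held 539, 829, 574, 746 and 708. The range of the OVA libraries lay inside that of the PBS libraries. Crtam averaged 716 ± 169.8 in PBS and 679 ± 121 in OVA (SD, n = 5 each), with a log2 fold change of -0.06 (SE 0.18, interval -0.45 to 0.32, adjusted p = 0.932 by limma) and an exact permutation p of 0.730.

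Cd160, a lipid-anchored receptor for Tnfrsf14 (HVEM) on NK cells and cytotoxic T cells, lies on chromosome 3 at 96798763 to 96829352 on the minus strand, where it overlaps Pdzk1 on the opposite strand. In PBS 1 it reached 2280 normalized counts, and in PBS 2 to 5 it was 937, 1061, 959.7 and 944. The OVA libraries 6 to 10 lay close together at 1286, 1343, 1244, 1402 and 1418. PBS 1 was the highest of all 10 libraries, whereas the other 4 PBS libraries were the lowest. The means were 1236 ± 586 in PBS and 1339 ± 74.2 in OVA (SD, n = 5 each), the log2 fold change was 0.21 (SE 0.21, interval -0.24 to 0.66, adjusted p = 0.774 by limma) and the exact permutation p was 0.429.

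The Cd160 comparison rested on PBS 1. Without it, PBS averaged 975 ± 57.7 normalized counts (SD, n = 4), the groups no longer overlapped (as in 2.8% of all tested genes) and the log2 fold change was 0.46. In that fit limma gave Cd160 an unadjusted p-value of 0.00102 and an adjusted p-value of 0.247, and 9.71% of all genes had an unadjusted p-value under 0.05. PBS 1 was singled out here by its own Cd160 value. The lack of overlap followed from that choice, and these values do not test the treatment. Both shares leave out PBS 1 for every gene, not the library that stands apart in each gene. PBS 1 was also the highest PBS library in Ctsw, Cst7, Fasl and Crtam, and it had the highest mean level of T cell markers, 13.97 on the log2 scale against 13.13 to 13.83 in the other libraries. The part of these markers in the Cd160 value was not tested.

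Fcer1g encodes the common gamma chain of Fc receptors, a signaling adaptor with an activation motif that is used by myeloid cells, mast cells and NK cells, and lies on chromosome 1 at 171229572 to 171234366 on the minus strand. Normalized counts of Fcer1g in PBS 1 to 5 were 557, 756, 914, 585 and 159.7. In OVA 6 to 10 they were 1306, 491, 219.95, 569 and 897. The 2 lowest libraries, PBS 5 and OVA 8, came from different groups, as did the highest ones, OVA 6 and PBS 3. The range over the 10 libraries was 8.18-fold, compared with 1.71- to 2.43-fold for the other 5 genes. Means were 594 ± 282 in PBS and 697 ± 417 in OVA (SD, n = 5 each). The log2 fold change of Fcer1g was 0.20 (SE 0.47, interval -0.81 to 1.21, adjusted p = 0.916 by limma), with an exact permutation p of 0.738. Its interval, from 0.569- to 2.32-fold, was the widest of the 6 genes. Without PBS 5 the log2 fold change was -0.22, and without OVA 6 it was -0.09.
The Fcer1g promoter, chr1:171234300-171234599 (GRCm38.p6, minus strand), is the counterpart of the Cst7 sequence above. It too held 1 RUNX match, in capitals, and no match to the letters of the other motifs.
Fcer1g: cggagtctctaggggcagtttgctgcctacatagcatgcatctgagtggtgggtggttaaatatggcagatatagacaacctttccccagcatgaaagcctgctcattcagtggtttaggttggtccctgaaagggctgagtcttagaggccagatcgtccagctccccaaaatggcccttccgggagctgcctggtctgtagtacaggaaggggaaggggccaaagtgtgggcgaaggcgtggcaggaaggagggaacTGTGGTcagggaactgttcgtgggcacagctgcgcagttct

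**Figure D2:**
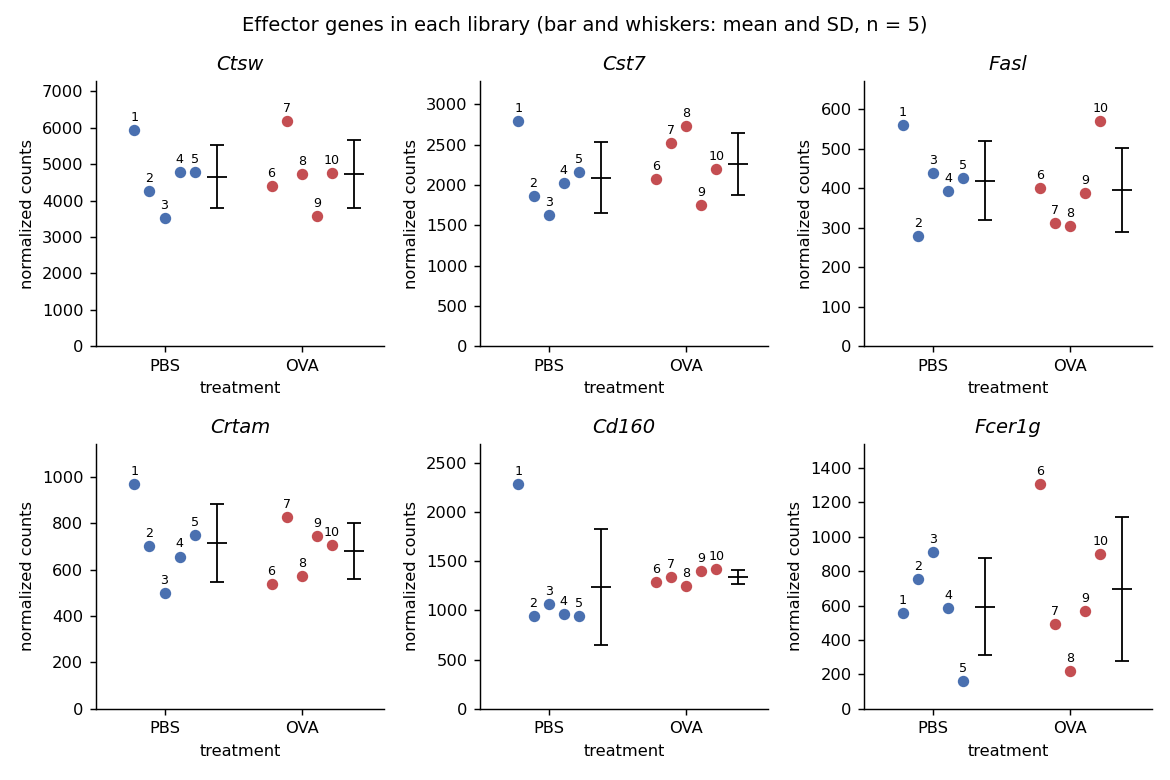
Normalized counts of the 6 genes (vertical axes, each from 0) in each PBS and OVA library, with replicate numbers beside the points and the mean and SD of each group (n = 5) to their right. The groups overlap in every gene, PBS 1 stands apart in Cd160 (2280), and Fcer1g spreads from 159.7 to 1306.

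As a set, 4 of the 6 genes had a positive log2 fold change (Ctsw, Cst7, Cd160 and Fcer1g) and 2 a negative one (Fasl and Crtam), with a median of 0.07. Over all tested genes 54.5% were higher in OVA, and the median was 0.04. With each library scaled to the same total the median of all genes moved to 0.15, and Crtam and Fasl then took positive values of 0.05 and 0.02. With array weights Ctsw took a value of -0.03. Without PBS 1 each of the 6 genes had a positive value. In bulk RNA, fewer cells that express a gene and less RNA per cell cannot be told apart.

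**Figure D3:**
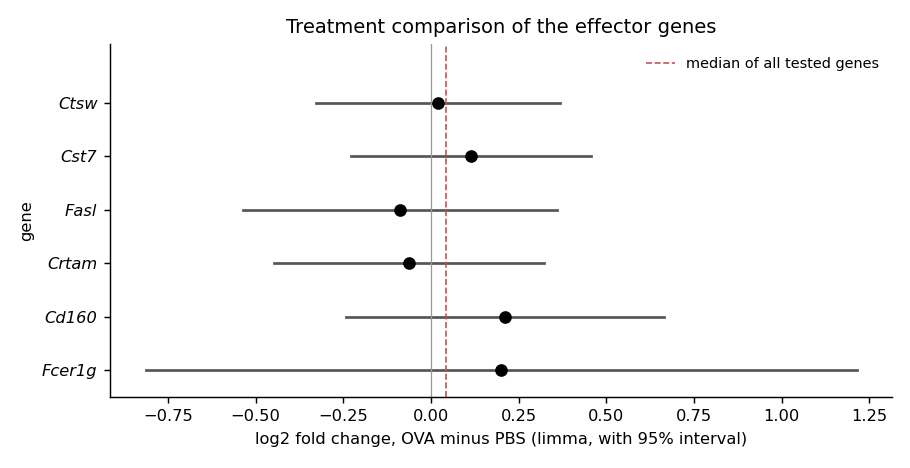
Log2 fold change of each gene, OVA minus PBS (horizontal axis), with its 95% interval from limma, and the median of all tested genes as a dashed line at 0.04. Each interval spans 0, the direction of Ctsw, Fasl and Crtam turns under another scaling or weighting, and the interval of Fcer1g is the widest (-0.81 to 1.21).

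Levels of the 6 genes were set against each other per kilobase of exon. Ctsw had the highest mean at 2489 normalized counts per kilobase, followed by Cst7 at 2205, Fcer1g at 739, Cd160 at 487, Fasl at 210.1 and Crtam at 136. Cst7 lay above Fcer1g, and Cd160 above Fasl, in 10 of 10 libraries. Ctsw lay above Cst7, and Fasl above Crtam, in 9 of 10. Fcer1g and Cd160 were the least separated neighbors in this order, with Fcer1g higher in 7 of 10 libraries and a range of 183 to 1494 against 355 to 863 normalized counts per kilobase.

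Over the 10 libraries Ctsw and Cst7, the protease and the inhibitor, varied together. Their log2 levels gave Pearson's r = 0.865 (permutation p = 0.00174, adjusted p = 0.0261) and Spearman's rho = 0.782 (permutation p = 0.0107, adjusted p = 0.161), and r was 0.724 without the 2 libraries farthest from the median of Ctsw, PBS 3 and OVA 9. This was the only one of 15 pairs of the 6 genes with an adjusted permutation p-value under 0.05 by Pearson's r, and by Spearman's rho 0 of 15 had one. Fcer1g had a negative r with Cst7 (-0.43, adjusted permutation p = 0.402) and with Ctsw (-0.28, adjusted permutation p = 0.678), and neither passed.

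Ctsw and Cst7 also followed the T cell markers. Cell type markers were summarized as the mean log2 level of each list, and 54 relations were computed (6 genes by 9 lists). Ctsw and the T cell list (8 genes with Cd4 and Cd8a) gave r = 0.881 (adjusted permutation p = 0.0224) and rho = 0.891 (adjusted permutation p = 0.0203), with raw permutation p-values of 0.00042 and 0.00113. Leaving out PBS 1 and PBS 3, the farthest libraries on the T cell axis, r was 0.773. Cst7 and the T cell list gave r = 0.882 (permutation p = 0.00083, adjusted p = 0.0224) and rho = 0.794 (permutation p = 0.00889, adjusted p = 0.0800), with r = 0.762 without the same libraries. The row placed as Cd3e did not follow the other T cell genes (r = 0.04 with their mean over the 10 libraries, against 0.687 to 0.989 for each of the other 7 genes), and its placement is in doubt. Without it, as chosen after seeing the data, r was 0.899 for Ctsw and 0.872 for Cst7 (permutation p = 0.00032 and 0.00071, not adjusted), and rho was 0.891 and 0.879 (permutation p = 0.00113 and 0.00166). For Cd160, Crtam, Fasl and Fcer1g the relation to the T cell list had adjusted permutation p-values of 0.315 to 0.953 by Pearson's r.

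Fcer1g passed an adjusted permutation p-value of 0.05 by Pearson's r with the dendritic cell, macrophage and monocyte, and neutrophil lists. With the dendritic cell list it gave r = 0.785 (permutation p = 0.00185, adjusted p = 0.0250) and rho = 0.915 (permutation p = 0.00046, adjusted p = 0.0124), and r was 0.819 without PBS 3 and OVA 7. With the macrophage and monocyte list it gave r = 0.888 (permutation p = 0.00134, adjusted p = 0.0241) and rho = 0.770 (permutation p = 0.0122, adjusted p = 0.0842). This relation rested in part on PBS 5 and OVA 8, the libraries lowest in both measures, and r was 0.575 without them. With the neutrophil list r was 0.794 (permutation p = 0.0051, adjusted p = 0.0459), rho was 0.661 (permutation p = 0.0439, adjusted p = 0.236) and r without OVA 6 and OVA 8 was 0.630. Each of these 3 lists held a gene near the floor of detection. Clec9a, C1qc and Ly6g, in the order of the lists above, were at or under 3 reads in 5, 6 and 5 libraries. Other lists came close without passing. The platelet list gave r = 0.766 (adjusted permutation p = 0.0648) and the B cell list r = 0.723 (adjusted permutation p = 0.0795). Without the 2 farthest libraries of each list, r was 0.281 and 0.342. The mast cell and basophil list gave r = 0.550 (adjusted permutation p = 0.344) and rho = 0.794 (adjusted permutation p = 0.0800). Its r was 0.841 without PBS 1 and PBS 3. The part of other cell types in the Fcer1g level was not tested.

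Fasl and Crtam had 1 relation each. Fasl and the NK cell list gave rho = 0.939 (permutation p = 0.00021, adjusted p = 0.0113) and r = 0.741 (permutation p = 0.00932, adjusted p = 0.0648), and r fell to 0.490 without PBS 2 and OVA 10, so that it rested on those libraries. The NK cell mean used 6 of the 9 listed genes, without Txk, Gzma and Tyrobp, and Klra8, Klra4 and Klri2 among them were near the floor of detection. Klre1 is also in the list of other cytotoxic genes. Crtam was lower where the mast cell and basophil list was higher, with r = -0.84 (permutation p = 0.00247, adjusted p = 0.0267) and rho = -0.85 (permutation p = 0.00298, adjusted p = 0.0402), and r was -0.60 without PBS 1 and PBS 3, the farthest libraries on the marker axis. Cd160 had no relation with an adjusted permutation p-value under 0.05 to any of the 9 lists.

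**Figure D4:**
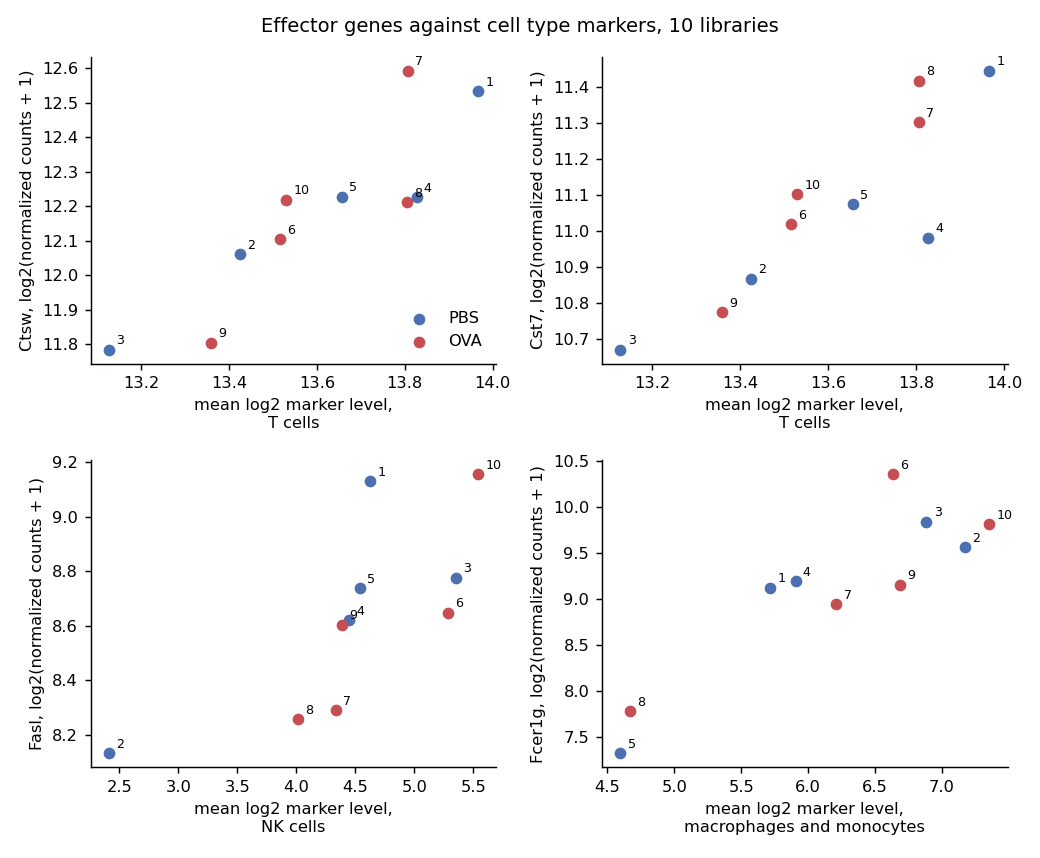
Log2(normalized counts + 1) of Ctsw, Cst7, Fasl and Fcer1g (vertical axes) against the mean log2 level of the T cell, NK cell, or macrophage and monocyte markers (horizontal axes) in the 10 libraries, with replicate numbers beside the points. Ctsw and Cst7 rise with the T cell markers (r = 0.881 and 0.882), the Fasl plot leans on PBS 2 at the lower left, and the Fcer1g plot leans on PBS 5 and OVA 8.

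The marker lists also described what the libraries held. Cd4 ranged from 4514 to 10114, Cd8a from 3697 to 8057 and the row placed as Cd3e from 6653 to 21432 normalized counts. The summed T cell list ranged from 79789 to 146577 in PBS and from 96057 to 130021 in OVA. The NK cell list summed to 3301 to 4908 in PBS and 3617 to 4796 in OVA, but 38.0% to 69.6% of this sum was Txk, a kinase that T cells also express. Without Txk, Gzma and Tyrobp the sum was 215 to 789 in PBS and 303 to 589 in OVA. Of the defining NK cell genes Klrb1c ranged from 177 to 601 and Ncr1 from 0.861 to 133 normalized counts, and Klra8, Klra4 and Klri2 reached at most 3.75, 25.5 and 35.6 and were at or under 3 reads in 7, 2 and 2 libraries. For macrophages and monocytes, Csf1r ranged from 127 to 670.2, Adgre1 from 21.7 to 185 and C1qa from 1.90 to 30.1, with sums of 1133 to 6261 in PBS and 979 to 10637 in OVA. Of 10 listed neutrophil genes 6 were placed and tested, without the defining gene S100a8. Their sum was 5148 to 16963 normalized counts in PBS and 9247 to 71425 in OVA, and the row placed as Mpo alone held 4593 to 25803. It held 4593 in PBS 1 and 9046 in OVA 8, close to the lowest sum of each group. In OVA 8 Ngp was at 131 and Ly6g at 0, so the sum does not measure neutrophil content. The Mpo row was also part of the neutrophil mean set against Fcer1g, and its placement was not checked beyond the alignment. Limma called 0 genes in any list at an adjusted p-value of 0.05 (0.00494% of all tested genes), as did edgeR (0.00988%). DESeq2 called 2 neutrophil genes, 2 B cell genes and 1 stromal gene (0.894% of the 18678 genes with an adjusted p-value). With array weights limma called 1 stromal gene, of 2 genes called in all. Without PBS 5 limma called 2 stromal genes, 1 B cell gene and 1 platelet gene, of 135 called in all. At an unadjusted p-value under 0.05, 0 of 8 T cell, 0 of 9 NK cell, 0 of 6 dendritic cell and 1 of 10 macrophage and monocyte genes differed, as did 1 of 7 mast cell and basophil, 1 of 5 platelet, 3 of 6 neutrophil, 4 of 8 B cell and 7 of 7 stromal genes, against 9.77% of all tested genes. These were higher in OVA except the platelet gene. Most stromal genes were near the floor of detection. Dcn, Col3a1 and Serping1 were at or under 3 reads in 5 libraries each, Col1a1 and Col1a2 in 3 each and Sparc in 2. Dcn was also the study's own candidate from these libraries. The stromal sum was 12.05 to 72.00 normalized counts in PBS and 115 to 219.6 in OVA, and its relation to the 6 genes had adjusted permutation p-values of 0.858 to 0.953 by Pearson's r.

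For each gene the most alike profiles over the 10 libraries were taken from 13794 rows, as a description. For Ctsw these were Abi3bp (r = 0.951), Sdccag8 (r = 0.947) and Cd5 (r = 0.947), of which Cd5 is a T cell surface receptor. For Cst7 they were Sike1 (r = 0.936), 1600014C10Rik (r = 0.933) and Dnajc30 (r = 0.921). For Fasl they were Shld3 (r = 0.940), Fuom (r = 0.878) and Ube2e2 (r = 0.876), and for Crtam Tmem43 (r = 0.946), Glyr1 (r = 0.946) and Sla (r = 0.927). The Cd160 profile was most like Pdgfb (r = 0.958), Krt222 (r = 0.940) and Gm2a (r = 0.919). These values were not computed without PBS 1, where Cd160 held 2280 normalized counts against at most 1418 in the other libraries. Fcer1g had the closest matches of the 6 genes, Mcemp1 (r = 0.990), Napsa (r = 0.972) and Ms4a3 (r = 0.968), of which Mcemp1 and Ms4a3 are known as myeloid genes. The points of each correlation share libraries and size factors.

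Partners of the 6 genes, which here include genes of the same pathways that do not bind them directly, were measured as well. Of 20 partners, such as the receptors, substrates and co-adaptors, limma called 0 (0.00494% of all tested genes), and 0 had an unadjusted p-value under 0.05 (9.77% of all tested genes), with 10 higher and 10 lower in OVA and a median log2 fold change of 0.00364. On recovered reads edgeR and DESeq2 also called 0 of 20 and each had 1 of 20 at an unadjusted p-value under 0.05. The shares called were 0.00988% of all tested genes with edgeR and 0.894% of 18678 genes with DESeq2. With equal totals the median was 0.12, and the sign of the median changed between settings. The lowest p-values belonged to Fas, the receptor of Fasl, and Ctsc, the granzyme-processing cathepsin that Cst7 inhibits. Fas was measured at 845 ± 178 normalized counts in PBS and 662 ± 32.2 in OVA (SD, n = 5 each), and its log2 fold change was -0.33 with an SE of 0.16 (adjusted p = 0.518 by limma). Ctsc was measured at 2820 ± 529 and 2307 ± 242 normalized counts (SD, n = 5 each), and its log2 fold change was -0.28 with an SE of 0.14 (adjusted p = 0.528 by limma). Among the receptors that need Fcer1g, named here for their role after their values were seen, Fcgr3 ranged from 107 to 427 normalized counts, whereas Fcgr1, Fcgr4 and Fcer1a reached at most 27.7, 48.8 and 38.8 and were at or under 3 reads in 4, 4 and 3 libraries.

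Other cytotoxic and NK-like genes gave the wider context. Of 32 listed genes 31 were placed and tested, and limma called 0 (0.00494% of all tested genes). In OVA 19 were higher and 12 lower, where 54.5% of all tested genes were higher. The median log2 fold change was 0.14 against 0.04 over all tested genes. This median was 0.097 with edgeR, 0.094 with DESeq2 and 0.086 with array weights. With equal totals it was 0.25, where that of all genes was 0.15. Without PBS 2 it was 0.03, with 16 higher and 15 lower. At an unadjusted p-value under 0.05, 3 of 31 differed, all higher in OVA, compared with 9.77% of all tested genes. These were Eomes, a T-box factor of effector and memory CD8 T cells and NK cells, Xcl1, a chemokine of the same cells, and Ccl4, which was named after its values were seen. Eomes was measured at 252 ± 33.8 normalized counts in PBS and 324 ± 28.5 in OVA (SD, n = 5 each), and its log2 fold change was 0.37 with an SE of 0.15 (adjusted p = 0.446 by limma). The log2 fold change of Xcl1 was 0.50 with an SE of 0.21 (adjusted p = 0.451 by limma), and that of Ccl4 was 0.46 with an SE of 0.20 (adjusted p = 0.464 by limma). These 3 genes had positive values in each of 19 alternatives, from 0.31 to 0.65 with adjusted p-values of 0.252 to 0.675. The groups overlapped in all 31 genes, whereas they did not overlap in 1.78% of all tested genes. On recovered reads edgeR and DESeq2 called 0 of the 31 (0.00988% of all tested genes and 0.894% of 18678 genes).

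**Figure D5:**
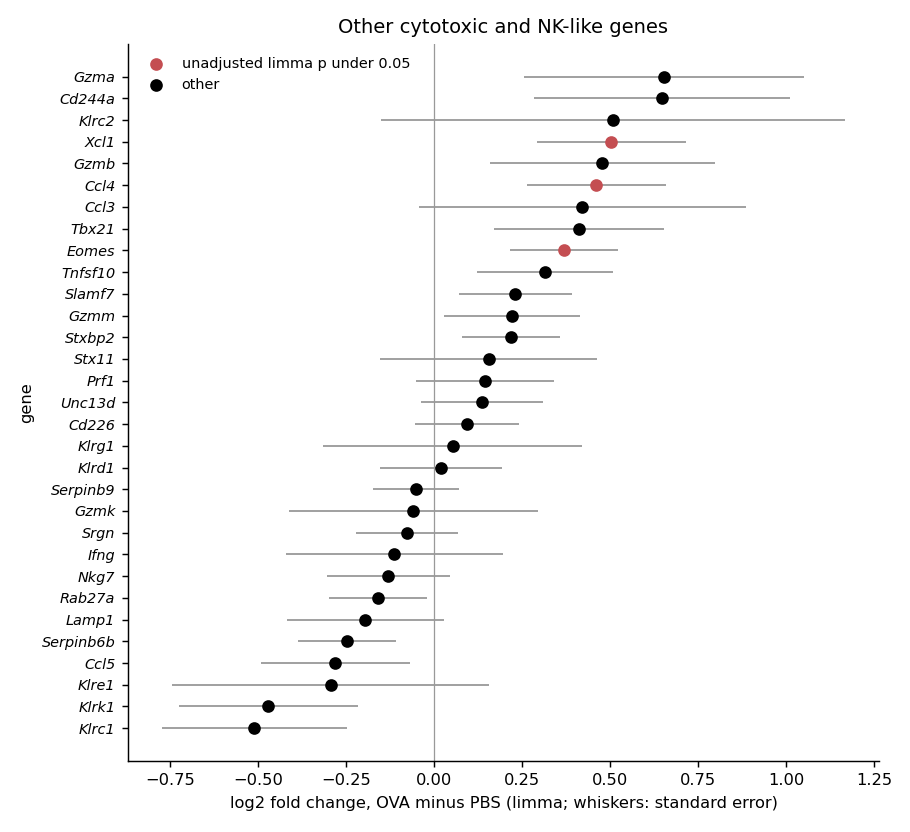
Log2 fold change, OVA minus PBS (horizontal axis), of 31 other cytotoxic and NK-like genes, with standard errors from limma as whiskers. The 3 red genes, Xcl1 (0.50), Ccl4 (0.46) and Eomes (0.37), had an unadjusted limma p-value under 0.05, against 9.77% of all tested genes. After adjustment 0 of 31 passed, against 0.00494% of all tested genes.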

How the data were processed

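RNA of spleen T cells from 5 PBS- and 5 OVA-treated mice was sequenced with a TruSeq kit that does not mark strand. Per the labels and methods, the authors demultiplexed with bcl2fastq, aligned with STAR 2.6.1d to Ensembl release 99 (mm10), and counted genes in Partek 9.0. The deposited signal is counts divided by median-ratio size factors, as in DESeq2. At least 99.9% of values lay within 0.1 of a whole number of reads, and these reads were used for edgeR 4.0.16 and DESeq2 1.42.0. Columns of values not used numbered 0.

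Limma 3.58.1 (R 4.3.3) was fitted to log2(value + 1) of genes with a mean of at least 1, with trended variance and Benjamini-Hochberg adjustment. Correlations used 100000 permutations. Names were aligned to values with a hidden Markov model that allowed distances of -10 to 40 rows and was fitted to GENCODE M21 annotation, which holds 97.7% of names, and listed genes were used only where placed with a probability over 0.9, which does not secure each single placement. The alignment and the fits were tested on simulated data. Named genes were the 6 genes, defining markers, the 2 lowest p-values of each gene list and the 3 most alike profiles. Members and lists were chosen with earlier results of these data known. Alternatives were pseudocounts of 0.5 and 0.1, equal totals, quantile normalization, no minimum or a minimum mean of 10, edgeR, DESeq2, array weights, names as listed, each library left out and, added after seeing the data, T cell markers without Cd3e. Precision from read counts covers counting error only.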

Additional observations from a re-analysis of the deposited data

Results flagged for a closer look

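In 7 of 62 groups of 5 libraries 1 library stood apart from the others, by the gap to its nearest neighbor as a share of the whole range (over 0.71 for 5 libraries). About 1 in 20 groups, or 3.1 of 62, would do so by chance if values were normal and groups independent. These groups share the same 10 libraries, and whether 7 exceeds 3.1 was not tested. Among the 6 genes this was Cd160 in PBS 1, at 2280 normalized counts against 937 to 1061 in the other PBS libraries (share 0.908). PBS 1 also stood apart in Xcl1, at 353 against 191 to 230.2 (share 0.758), and in Ctsc, at 3734 against 2448 to 2818 (share 0.713). OVA 6, the library highest in Fcer1g, stood apart in the neutrophil markers Ngp, at 28611 against 131 to 6246 (share 0.785), and Ly6g, at 97.5 against 0 to 14.2 (share 0.855), and in the B cell marker Cd79a, at 2069 against 131 to 641 (share 0.737). Ly6g in PBS 4 was at 8.61 normalized counts against 0 to 1.72 in the other PBS libraries (share 0.80). The part of these cell types in the values of the 6 genes was not tested.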

How the results depend on the processing

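Over 20 alternatives 0 of the 6 genes reached an adjusted p-value of 0.05. Log2 fold changes ranged with single libraries left out from 0.14 to 0.46 for Cd160 (adjusted p 0.247 to 0.891), from -0.18 to 0.055 for Crtam (without PBS 1, 0.055, and without OVA 6, 0.016), from 0.03 to 0.22 for Cst7, from -0.082 to 0.12 for Ctsw (without PBS 2, PBS 3 and OVA 7, -0.0064, -0.076 and -0.082), from -0.23 to 0.024 for Fasl (without PBS 1, 0.024) and from -0.22 to 0.56 for Fcer1g (without PBS 5, -0.22, and without OVA 6, -0.085). With equal totals Crtam was 0.050 and Fasl 0.024, and with array weights Ctsw was -0.029. Names as listed point to other rows, with values of -0.11 for Cst7 and -0.32 for Ctsw. Limma called 1 gene, and this count was 0 with a pseudocount of 0.1 (1946 unadjusted), 0 with quantile normalization (1763 unadjusted), 2 with edgeR, 2 with array weights and 167 with DESeq2, and 0 to 135 with a library left out, the most without PBS 5. The cause was not tested. No paired analysis was possible because the groups share no replicate numbers. The limma intervals limit what was detectable, most for Fcer1g.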
